A study of Mus musculus with 32 samples.

Results

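Heat shock proteins are molecular chaperones that bind unfolded or partly folded proteins and help them reach, or return to, their native shape. The family studied here comprised 10 genes chosen by symbol: the heat-inducible HSP70 pair Hspa1a and Hspa1b, the constitutive cytosolic HSP70 Hspa8, the HSP70 of the endoplasmic reticulum (ER) Hspa5, the HSP70 partners Dnajb1 and Hsph1, the cytosolic HSP90 pair Hsp90aa1 and Hsp90ab1, and the mitochondrial chaperonin pair Hspd1 and Hspe1. All 10 of 10 were found among the 17586 genes measured. Many of them are under the control of the transcription factor HSF1, which is held inactive by chaperones and binds heat shock elements in promoters when unfolded proteins occupy those chaperones. Hspa5 belongs chiefly to a separate circuit, the unfolded protein response of the ER. In tissue macrophages and microglia the inducible genes are also known to respond to the handling of cells, including enzymatic dissociation.

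RNA was sequenced from cells sorted from mouse brain, in 32 libraries of 4 populations with 8 libraries each. The 3 tumour populations were differentiated macrophages, undifferentiated macrophages and microglia of chimeric mice, PEP-3 into WT or WT into PEP-3, that carried intracranial implants of the glioblastoma (GBM) line GL-261, which is syngeneic with them. Normal microglia came from WT (CD45.2) or PEP-3 (CD45.1) mice labelled Nil, with no tumour and no graft. Each population had 4 libraries of C57BL/6J recipients (WT) and 4 of Pep3/CD45.1 recipients (Pep3), which for normal microglia is simply the mouse strain. The chimeras were made between 2 strains that differ in the CD45 allele, and the host cells they retained, the ages of the mice and the gates of the sort are not given in the sources used here. Whether libraries are from different mice is not labelled, so the p-values reflect only library-to-library spread, which may be technical.

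The deposited values were signed scores running from -6.50 to 6.92, and every one of the 17586 genes had a mean of 0 over the 32 libraries. The scale and any logarithm base are not given in the sources used here, so differences are in units of the table, without folds or levels, and sequencing depth is unknown. The scores spanned 21 dimensions, and 11 sample directions had no variation left; as a result 9 libraries kept under 50% of their own variation, namely normal microglia 1, 10, 18 and 26, tumour microglia 27, differentiated macrophages 28 and 31, and undifferentiated macrophages 8 and 29. Marker genes went with the labels: compared with tumour microglia, all 10 microglial markers were called lower and all 10 blood-derived macrophage markers higher in both macrophage populations. Signed scores cannot show that a marker is absent. Normal microglia were labelled experiments 1 and 2 and tumour populations experiments 3 and 4, so a difference between a tumour population and normal microglia cannot be told apart from experiment or from grafting. In WT recipients tumour microglia were of experiment 4 and both macrophage populations of experiment 3, and in Pep3 recipients the reverse. Within 1 strain a difference between macrophages and tumour microglia therefore cannot be told apart from experiment. In bulk samples fewer expressing cells and less RNA per cell cannot be told apart either.

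Chaperone genes were higher in tumour microglia than in normal microglia. In the fit over all 32 libraries (limma, adjusted p below 0.05 called), 7 of the 10 genes were called higher, none lower, and the other 3 had differences above 0. Of all genes 4.66% were called higher in this comparison, and the median difference of all genes was -0.245, against a median of 1.15 for the 10 chaperone genes. The 7 genes were Dnajb1, Hsph1, Hspa1b, Hspd1, Hspa1a, Hspe1 and Hspa8. Without the 9 libraries that kept under 50%, 0 of the 10 genes were called, but so were 0 of all 17586 genes in this comparison, with 6 residual degrees of freedom (limma). At an unadjusted p below 0.05 that fit had 1 of the 10 and 1866 of all genes. All 10 differences were above 0 in it, with standard errors from 0.702 to 1.27.

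**Figure D1:**
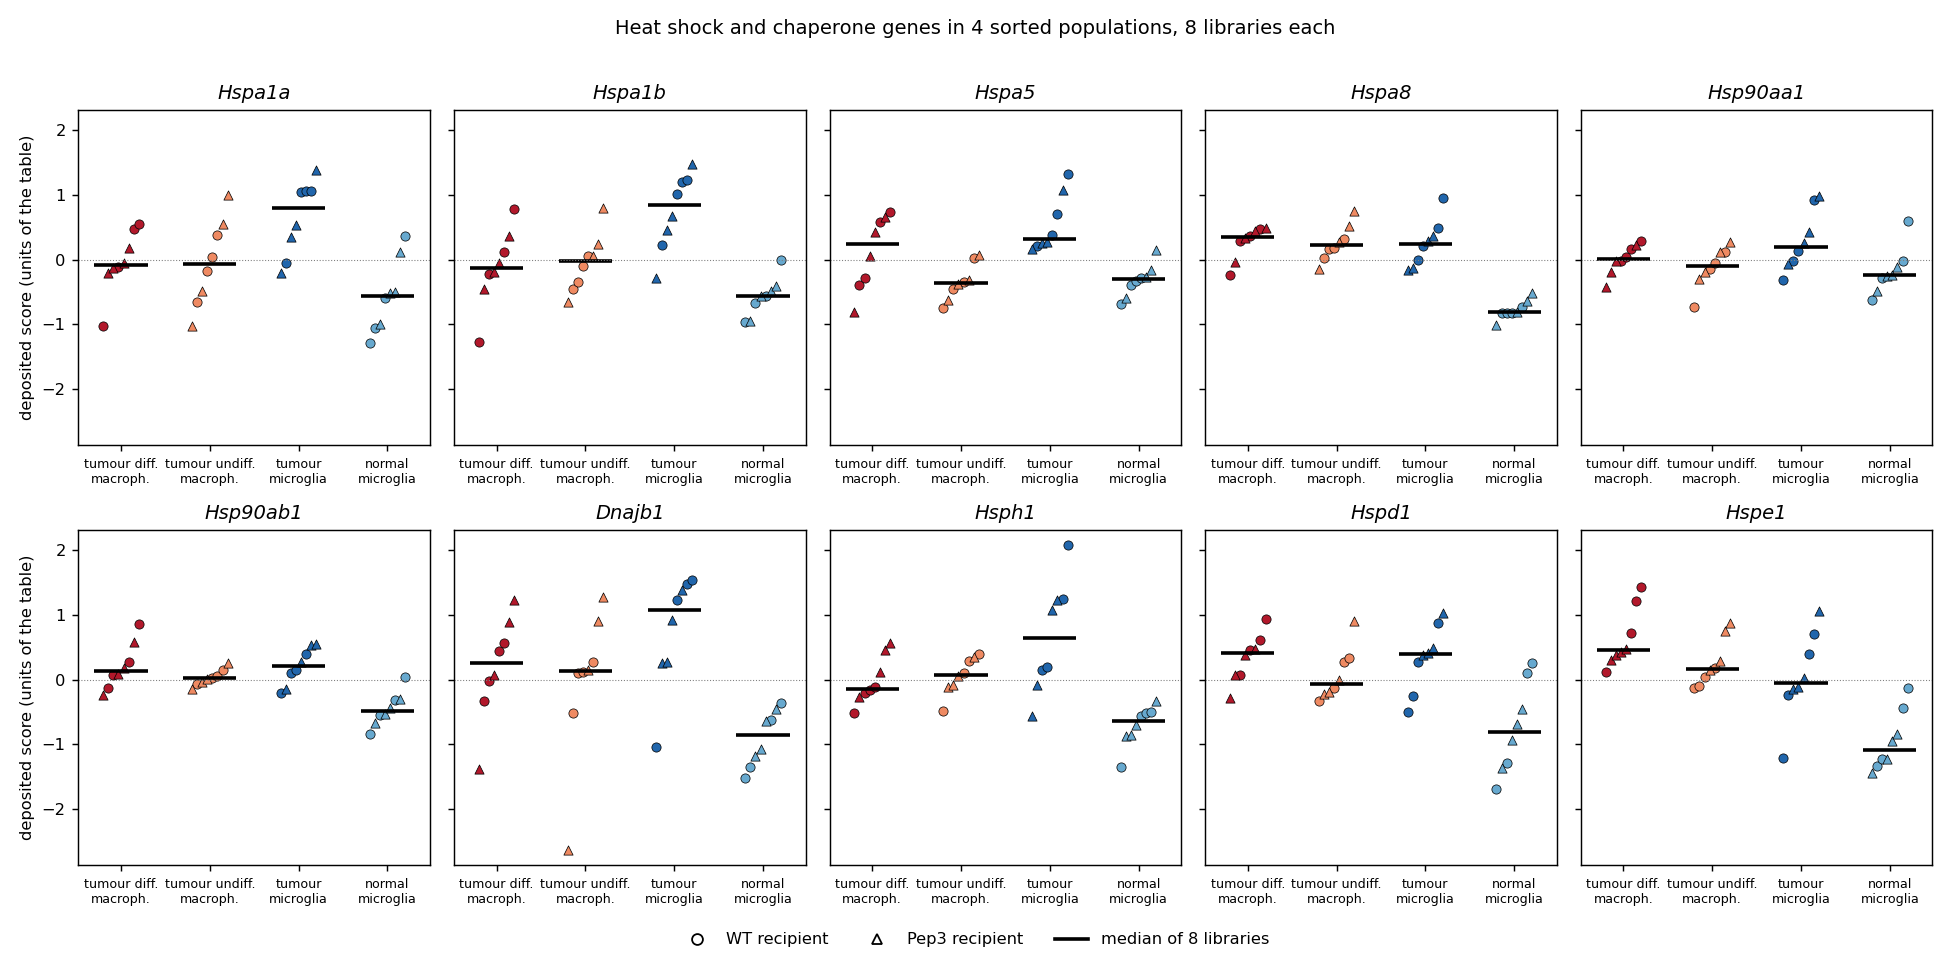
Deposited scores (vertical axis, units of the table) of the 10 genes in tumour differentiated macrophages, tumour undifferentiated macrophages, tumour microglia and normal microglia, one point per library, circles for WT and triangles for Pep3 recipients, with the median of 8 libraries as a line. Normal microglia have the lowest median of the 4 populations for 9 genes, and for Hspa5 their median of -0.306 lies just above the -0.358 of undifferentiated macrophages.

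Between tumour and normal microglia, in the fit over all 32 libraries, the 3 widest differences of the 10 genes were those of Dnajb1, Hsph1 and Hspa1b, all of the inducible HSP70 system. Dnajb1, an HSP40 that delivers substrates to HSP70 and stimulates its ATPase, ran from -1.38 through a median of 0.260 to 1.23 in differentiated macrophages and from -2.63 through 0.133 to 1.28 in undifferentiated macrophages. In tumour microglia it ran from -1.03 through 1.08 to 1.54, against -1.51 through -0.857 to -0.367 in normal microglia. All 8 normal microglia libraries were below 0 and 7 of 8 tumour microglia libraries above it; the ranges overlapped through 1 low tumour microglia library. The fitted difference between tumour and normal microglia was 1.73 ± 0.543 (SE; adjusted p = 0.032), the largest of the 10 genes.

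Hsph1, the HSP110 that exchanges nucleotide on HSP70 and helps dissolve aggregates, ran from -0.522 through -0.142 to 0.566 in differentiated and from -0.490 through 0.0749 to 0.399 in undifferentiated macrophages. Its tumour microglia values reached from -0.554 through 0.636 to 2.07, against -1.35 through -0.631 to -0.327 in normal microglia. Every normal microglia library was below 0, while tumour microglia were the most scattered of the 4 populations (SD 0.874, n = 8, against 0.319, n = 8, in normal microglia). Those SDs do not account for the sample directions that had no variation left. More libraries of normal than of tumour microglia lost most of their own variation there, so the SDs cannot show that the populations differ in scatter. Tumour microglia exceeded normal microglia by 1.37 ± 0.359 (adjusted p = 0.012).

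Hspa1b was at -0.287, 0.845 and 1.47 (lowest, median and highest) in tumour microglia, against -0.961, -0.568 and -0.00344 in normal microglia. No normal microglia library was above 0 and 7 of 8 tumour microglia libraries were. The difference was 1.35 ± 0.362 (adjusted p = 0.014). Hspa1a, its neighbour on chromosome 17, was at -0.204, 0.788 and 1.38 in tumour microglia, against -1.28, -0.556 and 0.358 in normal microglia, a difference of 1.22 ± 0.404 (adjusted p = 0.041). In the macrophages both genes were centred near 0: the medians of Hspa1a were -0.0864 in differentiated and -0.0611 in undifferentiated macrophages, and those of Hspa1b were -0.125 and -0.0211 in the same order. Their ranges there overlapped those of both microglial populations, from -1.02 to 0.542 and from -1.02 to 0.998 for Hspa1a and from -1.27 to 0.773 and from -0.656 to 0.802 for Hspa1b.

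The 2 genes encode nearly the same protein, and reads could be split between them in counting, so the value of either alone is uncertain. Their 250 bases before the transcription start, shown because the pair moved together most closely of all 45 gene pairs, were identical at 247 positions (98.8%). Capitals mark a head-to-head pair of heat shock units, GAANNTTC, found 104 to 97 bases before the start in both; the sequences are from RefSeq on GRCm38.p6, minus strand, at chr17:34972157-34972406 for Hspa1a and chr17:34959239-34959488 for Hspa1b, whereas the deposited table was built on mm9.
Hspa1a: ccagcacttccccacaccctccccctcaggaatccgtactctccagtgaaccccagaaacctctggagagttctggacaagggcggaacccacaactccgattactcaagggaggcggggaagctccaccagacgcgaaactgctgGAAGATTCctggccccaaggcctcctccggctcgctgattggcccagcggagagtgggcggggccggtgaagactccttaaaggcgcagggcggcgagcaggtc
Hspa1b: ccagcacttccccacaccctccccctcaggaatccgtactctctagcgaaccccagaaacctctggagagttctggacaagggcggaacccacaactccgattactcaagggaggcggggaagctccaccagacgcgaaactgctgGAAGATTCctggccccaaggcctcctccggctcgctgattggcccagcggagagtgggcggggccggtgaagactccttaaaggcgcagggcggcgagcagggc

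Windows of 250 bases before a start were held for 7 of the 10 genes in the RefSeq table; Hspa8, Hsp90aa1 and Hsp90ab1 had none there. On either strand, GAANNTTC was in 6.69% of all 32851 windows, its tail-to-tail counterpart TTCNNGAA in 7.17%, and the 3-unit form GAANNTTCNNGAA, which contains both, in 0.466%. The ER stress response element, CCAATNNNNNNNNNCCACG, was in 0.113%. Hspe1 and Hspd1 are transcribed away from each other from a shared promoter. It held 2 overlapping 3-unit matches over 18 bases, 89 to 72 bases before the Hspe1 start. The Hspd1 window at chr1:55087883-55088182 held these matches too. A further Hspd1 window, at chr1:55088194-55088493 and for a start lying past that of Hspe1, held none of the 4 motifs. Hsph1 held 1 tail-to-tail match 33 to 26 bases before its start, Hspa5 held 1 ER stress response element 65 to 47 bases before its start and none of the heat shock forms, and the Dnajb1 windows held none of the 4 motifs. The 3 stretches are printed to show these matches in capitals, on the strand of the gene named, at chr1:55088053-55088082, chr5:149636351-149636380 and chr2:34772020-34772049 of GRCm38.p6.
Hspe1: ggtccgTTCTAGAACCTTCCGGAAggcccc
Hsph1: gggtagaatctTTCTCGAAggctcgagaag
Hspa5: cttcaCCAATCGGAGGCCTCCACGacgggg

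The constitutive HSP70 was called higher in each of the 3 tumour populations than in normal microglia. Hspa8, which carries out housekeeping folding and uncoats clathrin vesicles, ran from -0.235 through 0.344 to 0.492 in differentiated and from -0.141 through 0.226 to 0.748 in undifferentiated macrophages. Tumour microglia ran from -0.164 through 0.247 to 0.944, against -1.01 through -0.814 to -0.517 in normal microglia. All 3 tumour populations lay wholly above normal microglia, with no overlap, and among themselves their medians differed by less than their spread. Tumour microglia exceeded normal microglia by 0.995 ± 0.272 (adjusted p = 0.016), differentiated macrophages by 1.03 ± 0.274 (adjusted p = 0.0074) and undifferentiated macrophages by 1.12 ± 0.292 (adjusted p = 0.0078). Of all genes 4.66%, 24.7% and 21.8% were called higher in these 3 comparisons. With the median of each library subtracted, Hspa8 was still called in tumour microglia (limma, adjusted p = 0.0038). It was then not called in differentiated or undifferentiated macrophages (adjusted p = 0.10 and 0.12). The share of its variance over the 32 libraries that lay between populations, 0.751, was the highest of the 10 genes. That share does not account for the removed directions.

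Both mitochondrial chaperonin genes were called higher in tumour microglia and in differentiated macrophages than in normal microglia. HSP60, encoded by Hspd1, forms the folding chamber of mitochondria, and Hspe1 encodes HSP10, its lid. Hspe1 was at 0.125, 0.453 and 1.43 (lowest, median and highest) in differentiated macrophages, at -0.122, 0.163 and 0.875 in undifferentiated macrophages, at -1.20, -0.0483 and 1.06 in tumour microglia, and at -1.44, -1.09 and -0.123 in normal microglia. Differentiated macrophages were above 0 in 8 of 8 libraries and normal microglia in 0 of 8. Hspe1 was higher than in normal microglia by 1.61 ± 0.345 in differentiated macrophages (adjusted p = 0.0017), by 1.22 ± 0.368 in undifferentiated macrophages (adjusted p = 0.018) and by 1.09 ± 0.342 in tumour microglia (adjusted p = 0.032). The 3 comparisons share the normal microglia libraries. Of all genes 24.7%, 21.8% and 4.66% were called higher in them, in the same order. With the median of each library subtracted, Hspe1 was not called in undifferentiated macrophages (0.744 ± 0.357, limma, adjusted p = 0.15). It was still called in differentiated macrophages and tumour microglia (limma, adjusted p = 0.013 and 0.0098).

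Hspd1 ran from -0.278 through 0.414 to 0.939 in differentiated macrophages, from -0.333 through -0.0651 to 0.901 in undifferentiated macrophages, from -0.493 through 0.393 to 1.03 in tumour microglia and from -1.68 through -0.814 to 0.250 in normal microglia. Its ranges overlapped between all populations, and 2 normal microglia libraries were above 0. Tumour microglia exceeded normal microglia by 1.25 ± 0.340 (adjusted p = 0.015) and differentiated macrophages did so by 1.12 ± 0.342 (adjusted p = 0.016). For undifferentiated macrophages the difference of 0.814 ± 0.365 was not called (adjusted p = 0.095). With the median of each library subtracted, Hspd1 was no longer called in differentiated macrophages (0.703 ± 0.322, limma, adjusted p = 0.12).

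The HSP90 genes, whose products complete the folding of kinases and steroid receptors and hold HSF1 in check, varied least. The SD over 32 libraries was 0.382 for Hsp90aa1, the stress-responsive form, and 0.376 for Hsp90ab1, the constitutive form; only 0.864% and 0.722% of all genes had a lower one. Hsp90aa1 ran from -0.320 through 0.191 to 0.980 in tumour microglia, against -0.628 through -0.241 to 0.596 in normal microglia, a difference of 0.549 ± 0.297 that was not called (adjusted p = 0.21, 95% interval -0.0657 to 1.16). Hsp90ab1 ran from -0.206 through 0.209 to 0.555 in tumour microglia, against -0.834 through -0.479 to 0.0440 in normal microglia, a difference of 0.723 ± 0.277 (adjusted p = 0.074, 95% interval 0.15 to 1.3). The macrophage medians of Hsp90aa1 were 0.00638 in differentiated and -0.104 in undifferentiated macrophages, and those of Hsp90ab1 were 0.132 and 0.0199 in the same order, between the medians of the microglial populations. Neither HSP90 gene was called in any of the 6 comparisons of populations.

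Hspa5 encodes BiP, the ER chaperone that restrains the sensors of the unfolded protein response. It was at -0.813, 0.240 and 0.732 (lowest, median and highest) in differentiated macrophages and at -0.749, -0.358 and 0.0719 in undifferentiated macrophages. In tumour microglia it was at 0.165, 0.320 and 1.32, against -0.689, -0.306 and 0.148 in normal microglia. Tumour microglia lay wholly above both undifferentiated macrophages and normal microglia. The difference from normal microglia, 0.863 ± 0.318, was not called (adjusted p = 0.064), although the libraries did not overlap; of the 10 genes, 2 had libraries wholly higher in tumour than in normal microglia, Hspa5 and Hspa8, as did 1.01% of all genes.

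Averaged over the 10 genes, a library of tumour microglia scored from -0.00421 to 0.951 and one of normal microglia from -0.963 to -0.110. The 2 groups did not overlap in this mean, with a narrow gap between them. Means of other sets of 10 genes were not computed, so how often groups separate in this way is unknown. All 10 genes were above 0 in tumour microglia 6, 19 and 27, the 3 libraries with the highest means, and 0 of 10 were above 0 in normal microglia 1, 10, 17, 18 and 26. Of those 8 libraries, tumour microglia 27 and normal microglia 1, 10, 18 and 26 are among the libraries that kept under 50% of their own variation. The difference of deposited means was above 0 for all 10 genes in WT recipients, from 0.262 for Hsp90aa1 to 1.76 for Dnajb1, and for all 10 in Pep3 recipients, from 0.657 for Hspa5 to 1.55 for Dnajb1. Those means do not account for the removed directions. Fits of 1 strain that do had 7 differences above 0 and 3 below in each strain, with 0 of the 10 genes and 0 of all genes called. Called genes turned sign in them, Hspd1 to -0.953 and Hspe1 to -0.988 in WT recipients, and Hsph1 to -1.05 and Hspa1a to -0.177 in Pep3 recipients.

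The count of 7 depended on single libraries. It was 0 of 10 when normal microglia 1, 10, 18 or 26, or tumour microglia 27, was left out, and 4 without tumour microglia 19; in every other leave-one-out fit it lay between 5 and 8. Of the 32 such fits Hspa1a was called in 20, Dnajb1 in 22, Hspe1 in 25 and the other 4 genes in 27 each. All 10 differences remained above 0 in each of the 32 fits, the lowest being 0.0989 without normal microglia 1. The number of all genes called higher moved with the same 5 libraries, to between 89 without normal microglia 1 and 357 without normal microglia 26, against 820 with all 32.

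**Figure D2:**
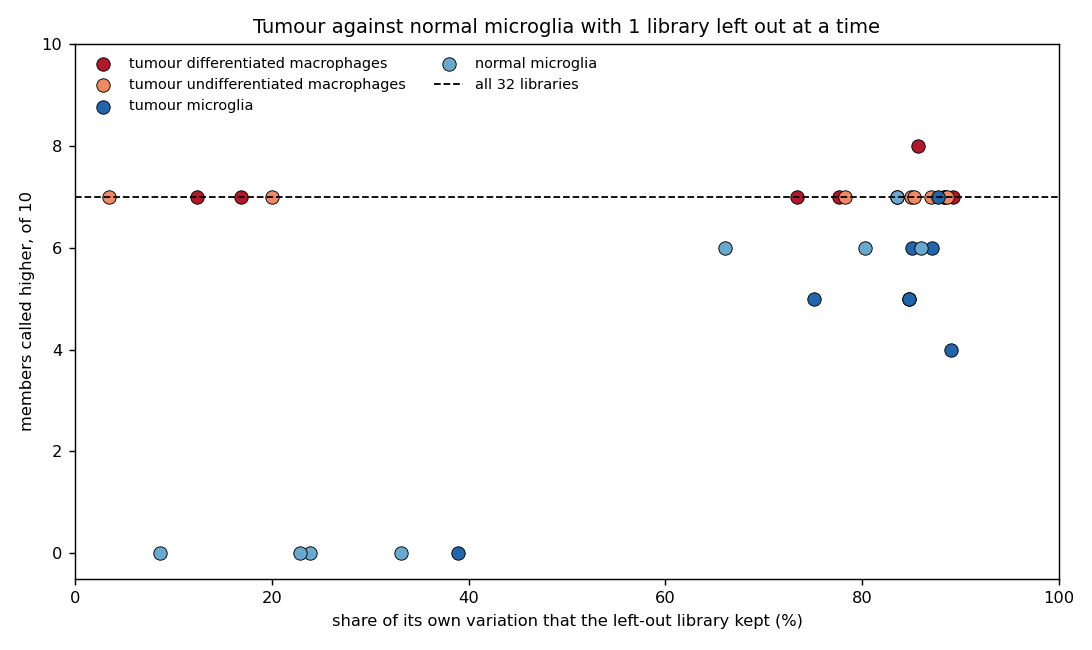
Number of the 10 chaperone genes called higher in tumour than in normal microglia (vertical axis) when 1 library was left out, plotted against the share of its own variation that the left-out library kept (horizontal axis, percent); colours give the population of the left-out library and the dashed line the count of 7 with all 32 libraries. The 5 points at 0 are 4 normal microglia libraries and 1 tumour microglia library, all under 50%.

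Other genes of the chaperone network were examined in lists of 100 measured genes in all, outside the 10. In tumour against normal microglia, 10 of the 100 were called higher, 2 lower and 88 were not called, with a median difference of 0.249 against -0.245 over all genes. Of all 17586 genes 820 (4.66%) were called higher and 2116 lower. Among J-domain co-chaperones, which recruit HSP70 to its substrates, 4 of 21 were higher and 1 lower; Dnaja2 differed by 2.10 ± 0.368 (adjusted p = 0.00086), Dnajc15 of mitochondria by 1.99 ± 0.456 (adjusted p = 0.0053) and Dnajc9, a histone co-chaperone, by 1.89 ± 0.444 (adjusted p = 0.0064). Among HSP90 co-chaperones and HSP70 exchange factors 2 of 19 were higher, Bag3, an HSP70 exchange factor that is itself a heat shock gene, by 1.94 ± 0.429 (adjusted p = 0.0042) and Fkbp5, an HSP90 partner of steroid receptors, by 1.54 ± 0.488 (adjusted p = 0.033). Others called higher were Hspa13 of the HSP70 family (1 of 9 measured; 1.20 ± 0.313, adjusted p = 0.012) and Cct2 of the cytosolic chaperonin TRiC (1 of 12; 1.92 ± 0.527, adjusted p = 0.016).

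In the same comparison 2 of 26 ER chaperone and unfolded protein response genes were higher, Sdf2l1, a BiP cofactor, by 1.68 ± 0.429 (adjusted p = 0.011) and Pdia3, a disulfide isomerase, by 0.905 ± 0.293 (adjusted p = 0.037). Of 5 genes listed by symbol as small heat shock proteins 1 was called, Hspb3, which was lower, at -1.54 ± 0.487 (limma, adjusted p = 0.033). Of the 7 measured genes listed as HSF1 pathway regulators and the 10 measured mitochondrial chaperones and proteases, 0 were called.

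Genes outside the chaperone network moved beside this result. Of 18 immediate early genes, which respond within minutes to stimulation or handling of cells, 4 were called higher in tumour than in normal microglia, among them Ier3 by 2.27 ± 0.397 (adjusted p = 0.00086), Atf3 by 1.66 ± 0.491 (adjusted p = 0.024) and Fosb by 1.69 ± 0.501 (adjusted p = 0.024). The mean score of the 18 genes ran from -0.813 to 0.762 in tumour microglia libraries and from -0.818 to -0.345 in normal microglia libraries. Of 15 proliferation genes 9 were called higher, among them Mcm5 by 2.63 ± 0.538 (adjusted p = 0.0025), and their mean score ran from -0.728 to 1.32 in tumour microglia and from -1.75 to -0.365 in normal microglia. Of the 10 macrophage markers Vim was higher (1.24 ± 0.408, adjusted p = 0.039) and Gda lower (-1.43 ± 0.445, adjusted p = 0.030), and the mean of the 10 ran from -2.30 to -0.720 in tumour microglia and from -2.04 to -1.10 in normal microglia. Of the 10 microglial markers Fcrls and Tmem119 were lower, and the mean of the 10 ran from 0.671 to 1.58 in tumour microglia and from 1.49 to 2.54 in normal microglia. Of markers of other brain cells, 2 of 5 neuron markers were lower, Stmn2 (-1.33 ± 0.315, adjusted p = 0.0069) and Snap25 (-1.505 ± 0.474, adjusted p = 0.033), and the mean of the 5 ran from -1.64 to -0.00290 in tumour microglia and from -0.836 to 0.619 in normal microglia. Of 7 astrocyte markers Slc1a2 and Aldoc were lower and Aldh1l1 higher, of 6 endothelial markers Tek was lower, and of 6 oligodendrocyte markers Cnp was higher. The astrocyte mean ran from -1.05 to 0.201 in tumour microglia and from -1.25 to 0.175 in normal microglia, the endothelial mean from -1.35 to -0.261 and from -1.24 to -0.129 in the same order, and the oligodendrocyte mean from -0.836 to 0.288 and from -0.917 to 0.541. Their part in the chaperone result was not tested.

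In the tumour macrophages the 10 genes lay low, relative to tumour microglia, in the distribution of all genes. In differentiated macrophages against tumour microglia 43.4% of all genes were called in either direction, 6510 higher and 1116 lower, whereas 0 of the 10 chaperone genes were called. The median difference was -0.339 for the 10 genes and 0.652 for all genes, and each of the 10 lay below the all-gene median. Hspa1b differed by -0.904 ± 0.376, short of the threshold (adjusted p = 0.055), and was the one gene of the 10 with an unadjusted p below 0.05. It was called lower in 8 of the 32 leave-one-out fits, those without normal microglia 2 or 18, tumour microglia 3 or 30, differentiated macrophages 7 or 12 or undifferentiated macrophages 8 or 32, at -0.919 to -1.22; without undifferentiated macrophages 8, Hspa1a was called too (-1.28, adjusted p = 0.034). Hspa1a differed by -0.690 ± 0.419 and Hsph1 by -0.685 ± 0.373, and the widest gap upward was 0.519 ± 0.355 for Hspe1; none of these 3 was called (adjusted p = 0.19, 0.14 and 0.25).

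In undifferentiated macrophages against tumour microglia 5.19% of all genes were called lower, and of the 10 chaperone genes 1 was, Hspa5, with a difference of -1.07 ± 0.345 (adjusted p = 0.016). Its 8 undifferentiated macrophage libraries were wholly below the 8 tumour microglia libraries, as for 1.31% of all genes. Without differentiated macrophages 28 this call was lost (-0.798, adjusted p = 0.11), as it was without the 9 libraries that kept under 50%; without undifferentiated macrophages 8, Hspa1a was called as well, which made 2. The other 9 genes were not called; Dnajb1 differed by -0.908 ± 0.589 (adjusted p = 0.23), Hspa1b by -0.755 ± 0.393 (adjusted p = 0.13) and Hspa8 by 0.126 ± 0.294 (adjusted p = 0.76). The median was -0.505 for the 10 genes and 0.715 for all genes, with each of the 10 below the all-gene median.

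With the median of each library subtracted, so that the median difference of all genes was close to 0, the 10 chaperone genes were all lower in sign in both macrophage populations than in tumour microglia. In differentiated macrophages 5 were called lower on that scale: Hspa1b (-1.57 ± 0.389, adjusted p = 0.0040), Hsph1 (-1.35 ± 0.392, adjusted p = 0.011), Hsp90aa1 (-1.02 ± 0.312, adjusted p = 0.014), Hspa1a (-1.36 ± 0.433, adjusted p = 0.018) and Hspa5 (-0.990 ± 0.324, adjusted p = 0.021). In undifferentiated macrophages 8 were called lower, all but Hspa8 and Hspe1, with Hspa5 at -1.79 ± 0.339 (adjusted p = 0.00070). The background on that scale was 19.2% of all genes called lower in differentiated and 16.3% in undifferentiated macrophages. Tumour against normal microglia gave 9 genes higher on it, all but Hsp90aa1, with 7.72% of all genes called higher.

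**Figure D3:**
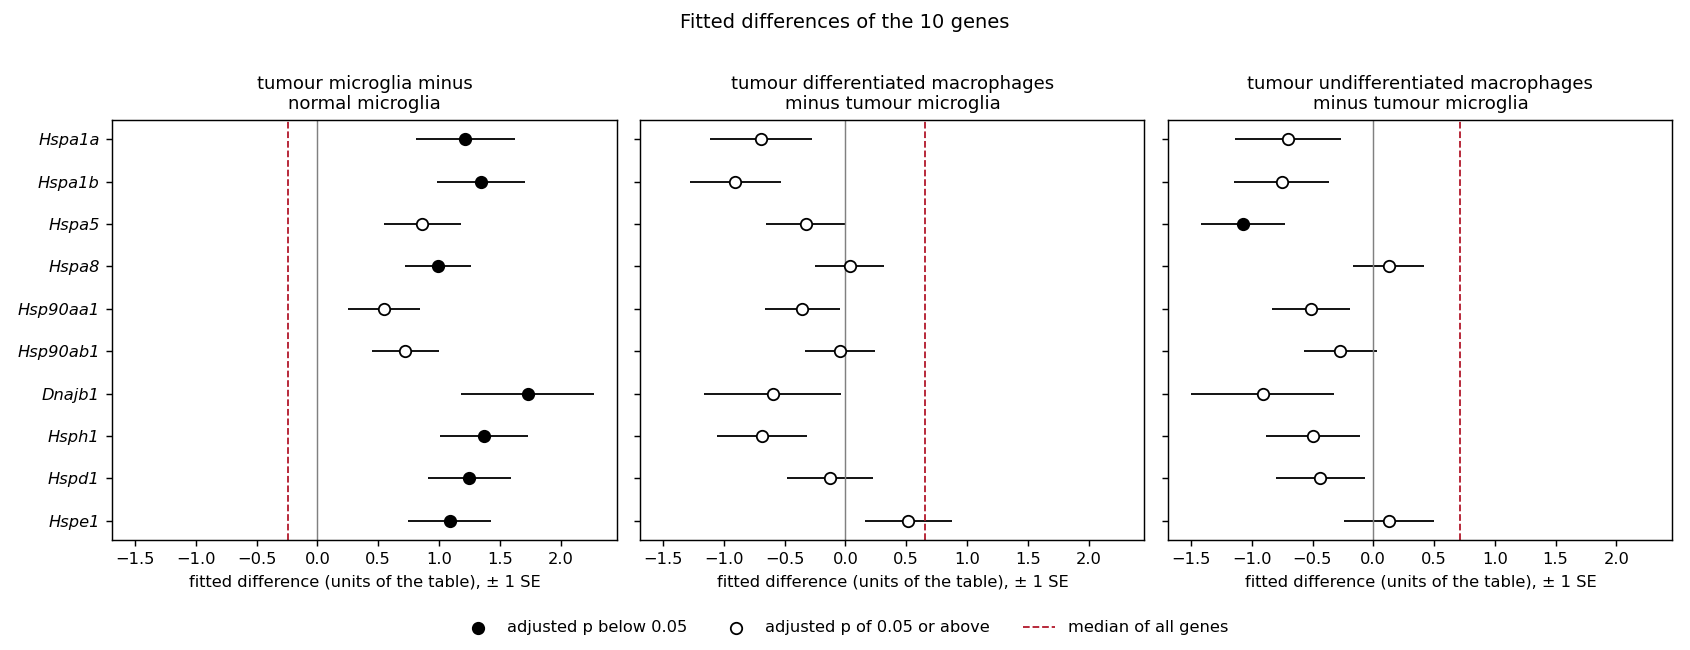
Fitted differences of the 10 genes (horizontal axis, units of the table, with 1 standard error) for tumour microglia minus normal microglia, differentiated macrophages minus tumour microglia and undifferentiated macrophages minus tumour microglia; filled points were called at an adjusted p below 0.05. The dashed line is the median of all 17586 genes: the 10 points lie to its right in the first panel, where it is at -0.245, and to its left in both other panels.

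On the deposited scale the wider chaperone network was also mostly not called, with genes called in both directions. Of the 100 other network genes, 5 were called higher and 11 lower in differentiated macrophages against tumour microglia, with a median of -0.258, and 6 higher and 13 lower in undifferentiated macrophages, with a median of -0.296. Of all 17586 genes 6510 were called higher and 1116 (6.35%) lower in differentiated macrophages, and 6448 (36.7%) and 913 (5.19%) in undifferentiated macrophages. With library medians subtracted these counts became 1 higher and 42 lower in differentiated and 1 higher and 45 lower in undifferentiated macrophages. Of all genes 19.8% were then called higher and 19.2% lower in differentiated macrophages, and 16.7% and 16.3% in undifferentiated macrophages. ER chaperones and unfolded protein response genes were lower for 5 of 26 and higher for 0 in each macrophage population. In differentiated macrophages they included the stress transcription factor Ddit3 (-1.78 ± 0.450, adjusted p = 0.0029), the disulfide isomerase P4hb (-0.896 ± 0.321, adjusted p = 0.027) and the BiP co-chaperone Dnajb9 (-1.45 ± 0.525, adjusted p = 0.029). In undifferentiated macrophages they included Pdia3 (-1.54 ± 0.317, adjusted p = 0.00069), Pdia4 (-1.60 ± 0.379, adjusted p = 0.0020) and the calcium-binding lectin chaperone Calr (-0.954 ± 0.301, adjusted p = 0.014).

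Among HSP90 co-chaperones and exchange factors 5 of 19 were lower and 1 higher in undifferentiated macrophages than in tumour microglia: the chaperone-linked ubiquitin ligase Stub1 was lower, at -1.51 ± 0.345 (adjusted p = 0.0015), as was Fkbp5, at -1.57 ± 0.528 (adjusted p = 0.020), and Bag2, an inhibitor of Stub1, was higher by 1.66 ± 0.461 (adjusted p = 0.0063). In differentiated macrophages 2 were lower, among them Stub1 at -1.02 ± 0.330 (adjusted p = 0.015), and 1 was higher. J-domain co-chaperones were lower for 4 of 21 in differentiated and 1 of 21 in undifferentiated macrophages. Of all genes 6.35% and 5.19% were called lower in the same order, so 1 of 21 is close to the background. Dnajb4 was lower in both, at -1.28 ± 0.429 (limma, adjusted p = 0.019) and -1.32 ± 0.449 (adjusted p = 0.022). With library medians subtracted the call of Bag2 was lost in both populations.

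The higher calls of the network were led by Hsf5, a member of the heat shock factor family, which was higher than in tumour microglia by 2.69 ± 0.423 in differentiated (adjusted p = 5.8e-05) and by 1.95 ± 0.441 in undifferentiated macrophages (adjusted p = 0.0014). With library medians subtracted it was the 1 network gene still called higher in each, by 2.02 ± 0.406 (adjusted p = 0.00092) and 1.23 ± 0.424 (adjusted p = 0.031). Of the 7 measured genes listed as HSF1 pathway regulators, a list that takes in other heat shock factors, Hsf5 was the 1 called in differentiated macrophages. Hsf2, another heat shock factor, was the other of 2 called higher in undifferentiated macrophages (1.14 ± 0.459, adjusted p = 0.049). Whether Hsf5 acts on the HSF1 pathway was not tested. In the HSP70 family Hspa14 was higher in both populations, by 1.23 ± 0.369 (adjusted p = 0.0098) and 1.02 ± 0.386 (adjusted p = 0.037), Hspa2 in differentiated macrophages alone was called (1.66 ± 0.529, adjusted p = 0.014), and Hspa13 was lower in both, at -1.18 ± 0.325 (adjusted p = 0.0054) and -1.03 ± 0.339 (adjusted p = 0.018). Among 5 genes listed by symbol as small heat shock proteins, Hspb7 was higher in both, by 1.76 ± 0.495 (limma, adjusted p = 0.0064) and 1.60 ± 0.517 (adjusted p = 0.016). Hspb11 was higher in undifferentiated macrophages (1.25 ± 0.409, adjusted p = 0.017). Hspb3 was lower in both populations, at -2.33 ± 0.505 (adjusted p = 0.00089) and -1.99 ± 0.528 (adjusted p = 0.0046). A symbol alone does not show that a product acts as a chaperone. On the scale with medians subtracted Hsf2, Hspa14, Hspa2, Hspb7 and Hspb11 were not called, and Hspa13 and Hspb3 were called lower in both populations.

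Markers of other cells also differed in these comparisons. Immediate early genes were lower for 3 of 18 in differentiated macrophages than in tumour microglia, Ier5, Jun and Egr1, at differences of -1.38 to -1.43. In undifferentiated macrophages 5 were higher and 2 lower, which became 0 higher and 4 lower with library medians subtracted. In differentiated macrophages 5 of 7 astrocyte markers, 4 of 5 neuron markers, 5 of 6 endothelial markers and 1 of 6 oligodendrocyte markers were called higher than in tumour microglia, and with library medians subtracted 3, 1, 2 and 1 were. In undifferentiated macrophages the counts were 5, 4, 4 and 1, and 3, 1, 2 and 1 with medians subtracted. Of all 17586 genes 6510 were called higher in differentiated and 6448 in undifferentiated macrophages, and 19.8% and 16.7% with medians subtracted. Astrocyte and endothelial counts were above these shares on both scales. Oligodendrocyte counts were close to or below them, as were neuron counts with medians subtracted. The 5 of 18 immediate early genes higher in undifferentiated macrophages were also below the share of all genes. The mean score of the 7 astrocyte markers ran from 0.140 to 0.765 in differentiated macrophages, from -0.0406 to 0.937 in undifferentiated macrophages and from -1.05 to 0.201 in tumour microglia. Of 15 proliferation genes 1 was called higher in differentiated macrophages, Tyms (1.52 ± 0.462, adjusted p = 0.011), and 1 lower in undifferentiated macrophages, Ccna2 (-1.20 ± 0.477, adjusted p = 0.048). With library medians subtracted, the scale on which 5 and 8 of the 10 chaperone genes were called lower, 2 of the 15 were lower in differentiated and 11 in undifferentiated macrophages, and 0 were higher in either. Their mean score ran from -0.171 to 0.907 in differentiated macrophages, from -0.425 to 0.541 in undifferentiated macrophages and from -0.728 to 1.32 in tumour microglia. Of 7 T and NK cell markers 1 was measured, called higher in differentiated macrophages, and of 7 neutrophil markers 0 were measured. Their part in the chaperone results was not tested. The comparisons of both macrophage populations share the tumour microglia libraries.

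The 2 macrophage populations could not be separated by these genes. Of the 10, 0 were called between differentiated and undifferentiated macrophages, and of all genes 0.0114% were, which is 2 genes; at an unadjusted p below 0.05 there were 0 of the 10 and 491 of all genes. The largest difference was that of Hspa5, 0.750 ± 0.379 higher in differentiated macrophages, with a 95% interval from -0.0342 to 1.53. The intervals of the other 9 genes reached at least 0.578 on the upper side and -0.454 on the lower, so differences of that size cannot be told from 0 here.

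Against normal microglia, differentiated macrophages had 3 of the 10 genes called higher, Hspe1, Hspa8 and Hspd1, where 24.7% of all genes were called higher. Undifferentiated macrophages had 2 called higher, Hspa8 and Hspe1, where 21.8% of all genes were. Both shares are close to the background. The inducible HSP70 genes were not called in either: Hspa1a differed by 0.528 ± 0.407 in differentiated and 0.517 ± 0.434 in undifferentiated macrophages (adjusted p = 0.32 and 0.37). Without normal microglia 10 the 3 calls in differentiated macrophages were 0. In undifferentiated macrophages 1 of the 2 calls was lost without any one of normal microglia 1, 2, 10 or 26 or differentiated macrophages 31. Without the 9 libraries that kept under 50%, 0 were called in either. With the median of each library subtracted, Hspe1 alone was called in differentiated macrophages (1.19 ± 0.335, adjusted p = 0.013) and 0 genes in undifferentiated macrophages.

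No gene of the 10 was called for a recipient difference, tested as the population difference in WT recipients minus that in Pep3 recipients (limma). For tumour against normal microglia the lowest adjusted p was 0.29, that of Hspd1 at -2.03 ± 1.08. It was 0.34 when differentiated macrophages were set against tumour microglia, 0.43 for the undifferentiated ones and 1.00 between both macrophage populations. At an unadjusted p below 0.05 the count was 0 of 10 in each. Of all genes 5.03% were called for such a difference in tumour against normal microglia, 0.449% in differentiated and 0.00569% in undifferentiated macrophages against tumour microglia, and 0.00% between both macrophage populations, so 0 of 10 is close to the background. Among tumour populations this contrast is also that between experiments 3 and 4, and these cannot be told apart. For tumour against normal microglia it cannot be told apart from experiment either. There WT recipients set experiment 4 against 1, and Pep3 recipients set experiment 3 against 2.

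Over the 32 libraries the 10 genes varied together: all 45 pairs had a positive Pearson correlation, with a median of 0.501. Hspa1a and Hspa1b were the closest pair (r = 0.897), and the loosest was Hspa5 with Hspe1 (r = 0.144). After the mean of each population and recipient was subtracted, 37 of 45 pairs were positive with a median of 0.304, and Hspa1a with Hspa1b kept r = 0.839. Within populations the HSP90 pair had r = 0.576 and the mitochondrial pair r = 0.413. There Hspa5 had r = 0.408 with Hsp90ab1, and with the other 8 genes its r lay between -0.312, with Hspa8, and 0.110, with Hspd1. The libraries share the removed directions and their scaling, and Hspa1a and Hspa1b share sequence, so these values are descriptions without a test.

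**Figure D4:**
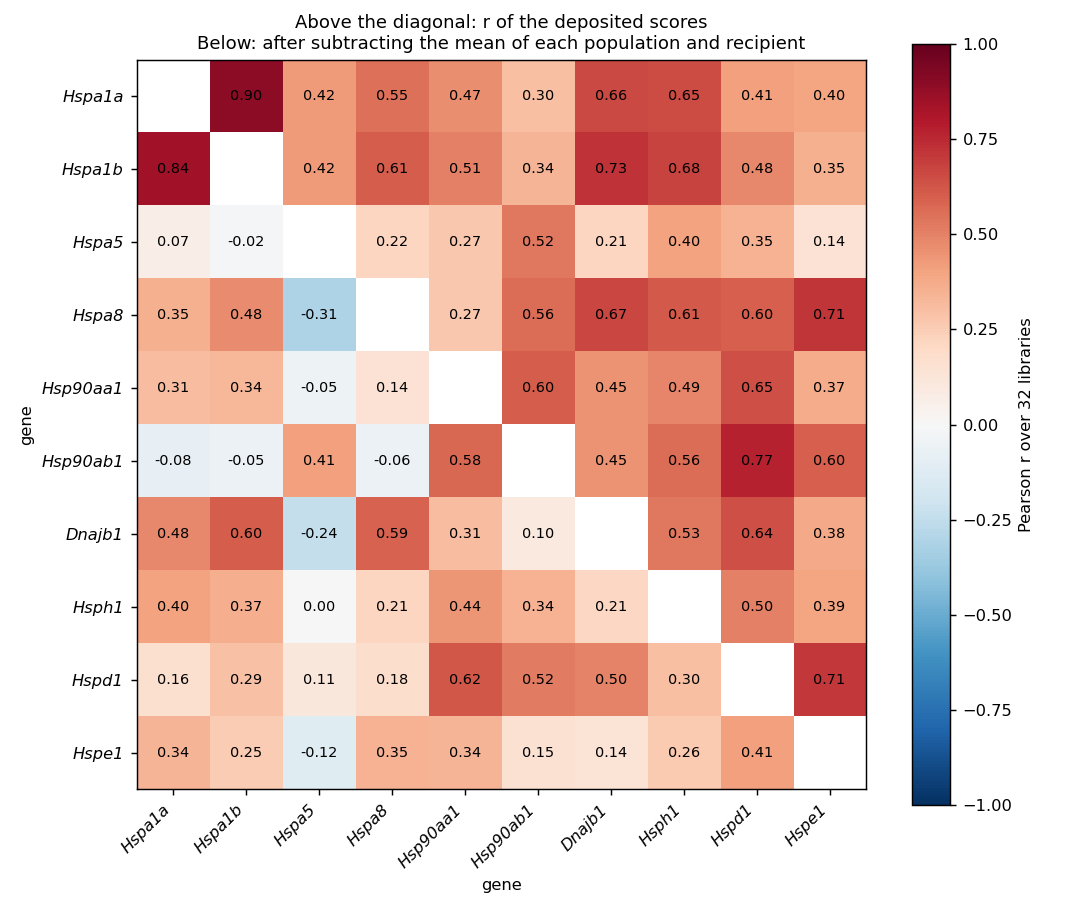
Pearson correlation between the 10 genes over 32 libraries (both axes list the genes, colour gives r); values above the diagonal are for the deposited scores and those below it after subtracting the mean of each population and recipient. The Hspa1a and Hspa1b cell is the darkest on both sides, at 0.897 and 0.839, and the row of Hspa5 is palest below the diagonal.

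The genes whose scores followed each chaperone most closely over the 32 libraries were mostly not chaperones. For Hspa1a they included Bat1a (r = 0.810) and Alkbh2, and for Hspa1b they were Smad2 (r = 0.805), Bat1a and the polyubiquitin gene Ubb. Dnajb1 was followed by Pank2 (r = 0.882), Rnf7 and Slc25a4, and Hsph1 by Clp1 (r = 0.793), Irf9 and Sat1. Hspa8 was closest to genes of antigen presentation and interferon response, H2-Aa (r = 0.874), Il18bp (r = 0.872) and H2-K1 (r = 0.870). Hspd1 was closest to Uqcrh, a subunit of respiratory complex III (r = 0.892), with Suox and Herc4 next, and Hspe1 to Stom (r = 0.896), Siva1 and the ribosomal protein gene Rps6. Hsp90ab1 was closest to D730005E14Rik (r = 0.836), Ran and Mrpl19, Hsp90aa1 to 2210016L21Rik (r = 0.773), Acbd6 and Urod, and Hspa5 to Stmn1 (r = 0.727), Dpy30 and Tfip11. These come from the top 3 of all genes for each, so high values are chosen by construction.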

How the data were processed

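Per the submitters' processing notes, the authors used FastQC, STAR 2.5.0a and RSEM 1.3.0 on mm9; cDNA came from a low-input SMART-Seq kit, per the labels' protocols. The deposited values are signed scores named normalised counts, centred within each recipient strain; how they were made is not given in the sources used here. Populations were compared with limma 3.58.1 in R 4.3.3 (robust empirical Bayes, two-sided) on all 17586 genes and 32 libraries, with a mean per population and recipient, the removed directions as covariates and 15 residual degrees of freedom. Differences are averaged over recipients. P-values were adjusted by Benjamini-Hochberg over all genes and called below 0.05. No filter or pseudocount was used. The script was tested on simulated data. The 10 genes and all lists were chosen with earlier results of these data known; 187 of 219 listed symbols matched. From each list up to 3 called genes with the lowest p per comparison are eligible to be named; for each of the 10 genes the 3 best-correlated genes are eligible, of which 1 is not reported here. Promoters are RefSeq sequences on GRCm38.p6. Alternatives changed the scaling, direction terms, variances, weights or libraries.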

Additional observations from a re-analysis of the deposited data

Results flagged for a closer look

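Dnajb1 in undifferentiated macrophages library 32 was at -2.63, far below the next lowest library of that population at -0.511, while the highest was at 1.28. The gap was 0.542 of the whole range, above Dixon's 95% critical value. Chance flags about 1 in 20 groups, and this was 1 flag among 40 groups of a gene and a population. The same library had the lowest mean of the 10 genes among undifferentiated macrophages, -0.442. That mean includes the flagged Dnajb1 value, so it is not a separate sign that the library was low.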

How the results depend on the processing

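No paired analysis was possible because the labels share no library number between populations and name no pairing. Experiment 3 or 4 alone left no estimable comparison and was not run. The number of the 10 genes called, with main counts of 7 (tumour against normal microglia), 0 (differentiated macrophages against tumour microglia), 1 (undifferentiated macrophages against tumour microglia), 3 (differentiated macrophages against normal microglia) and 2 (undifferentiated macrophages against normal microglia), became 9, 5, 8, 1 and 0 with library medians subtracted, 9, 2, 2, 6 and 4 without terms for the removed directions, and 0, 0, 1, 1 and 1 with library weights. It was 0 in all 5 with only the compared libraries (3 residual degrees of freedom), in WT recipients alone, in Pep3 recipients alone and without the 9 libraries under 50%. Without both those libraries and the direction terms, an alternative chosen after seeing the data, the counts were 0, 0, 1, 2 and 1. Leaving out 1 library gave 0 to 8, 0 to 2, 0 to 2, 0 to 4 and 1 to 2. Between the macrophages the count was 0 under every alternative run.

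Signs of called differences turned in fits of a single strain, whose standard errors for tumour against normal microglia ran from 0.731 to 2.03 and in which 0 genes were called: in tumour against normal microglia Hspa1a -0.177 and Hsph1 -1.05 in Pep3 recipients, Hspd1 -0.953 and Hspe1 -0.988 in WT recipients; in undifferentiated macrophages against tumour microglia Hspa5 0.0559 in Pep3 recipients; in differentiated macrophages against normal microglia Hspd1 -0.416 and Hspe1 -0.450 in WT and Hspd1 -0.0388 in Pep3 recipients; in undifferentiated macrophages against normal microglia Hspe1 -1.31 in WT recipients. These fits have 3 residual degrees of freedom. The cause was not tested. Depth is unknown.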
